A study of Mus musculus with 14 samples.

Results

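*Ebf1*, *Ebf2* and *Ebf3*, 3 of the 31054 genes counted, were followed through sorted *Atoh1*-lineage cells of the mouse hindbrain. The members are the gene rows carrying these 3 symbols, and each symbol had 1 row in all 14 libraries. Cells were TdTomato-positive and DAPI-negative and were profiled by single-cell RNA sequencing with 10x Genomics 3′ chemistry, which counts unique molecular identifiers (UMIs). At E14.5 and at E18.5 there were 3 control embryos (*Atoh1*Cre/+; *Rosa* lsl-tdTomato/+) and 3 Atoh1S193A/- embryos (*Atoh1*Cre/S193A; *Rosa* lsl-tdTomato/+), with 1 library per embryo, and at P5 there were 2 control libraries of dissected pontine nuclei (PN) pooled over pups. All mice were C57BL/6J. Every genotype carried the Cre-bearing, inactive *Atoh1* allele and the reporter, so no library here came from animals with 2 intact copies of *Atoh1*, and the Cre labels the *Atoh1* lineage rather than PN neurons alone. S193A is a single amino acid change, so UMIs near the 3′ end of *Atoh1* do not check the genotype labels.

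EBF proteins bind DNA as dimers through a zinc-containing domain shared by the family and a helix-loop-helix region. They are known as regulators of differentiation: *Ebf1* in early B lymphocytes, *Ebf2* in brown fat and in several groups of neurons, and *Ebf3* in newborn neurons of many brain regions. In the developing nervous system they are typically switched on as cells leave the progenitor state and begin to migrate. The rhombic lip, the source of both PN neurons and cerebellar granule cells, is patterned by *Atoh1*, a basic helix-loop-helix factor whose class binds the E-box CANNTG.

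On GRCm38, *Ebf1* (ENSMUSG00000057098) lies on the plus strand at chr11:44617317-45008091, *Ebf2* (ENSMUSG00000022053) on the plus strand at chr14:67233292-67430918 and *Ebf3* (ENSMUSG00000010476) on the minus strand at chr7:137193673-137314445. Promoter windows of 250 bases before to 50 bases after a start were taken from RefSeq on GRCm38.p6. The table held 1 window for *Ebf3* and 2 for *Ebf1*. The window of *Ebf3* and that of the downstream *Ebf1* start are shown because they differ in base composition and in the 2 motifs that concern this study, in capitals: the E-box CANNTG, and CCCNNGGG, the core of the palindrome that EBF proteins bind. Both motifs read the same on either strand.
Ebf3, chr7:137314396-137314695, minus strand: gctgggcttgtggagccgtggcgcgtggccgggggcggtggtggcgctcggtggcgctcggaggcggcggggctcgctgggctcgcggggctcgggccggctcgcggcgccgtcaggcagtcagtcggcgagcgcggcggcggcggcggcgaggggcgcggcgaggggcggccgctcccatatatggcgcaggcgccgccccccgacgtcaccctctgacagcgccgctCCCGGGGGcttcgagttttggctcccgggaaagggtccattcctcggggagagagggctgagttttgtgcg
Ebf1 downstream start, chr11:44619978-44620277, plus strand: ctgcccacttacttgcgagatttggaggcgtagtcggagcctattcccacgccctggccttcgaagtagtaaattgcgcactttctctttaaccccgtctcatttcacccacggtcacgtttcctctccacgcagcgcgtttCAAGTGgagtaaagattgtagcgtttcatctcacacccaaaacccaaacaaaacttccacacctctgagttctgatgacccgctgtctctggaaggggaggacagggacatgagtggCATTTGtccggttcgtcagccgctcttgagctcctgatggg
The *Ebf3* window was 77.0% GC, with 1 CCCNNGGG and no CANNTG, and the downstream *Ebf1* window was 53.0% GC, with 2 CANNTG and no CCCNNGGG. The upstream *Ebf1* window, chr11:44617850-44618149, was 36.67% GC and held neither. Over 32851 promoter windows the median GC content was 52.67%, CANNTG was present in 72.3% and CCCNNGGG in 13.7%. The E-box forms CAGCTG (16.3% of promoters) and CAGATG (17.2%, also searched as CATCTG) and the box TATAAA (13.6%, also searched as TTTATA) were in none of the 3 *Ebf* windows. These matches describe letters in the windows and were not tested as binding sites.

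After quality filters 80250 cells were kept, between 3248 and 8726 per library, with median UMIs per cell of 12010.5 to 20922.0 and total UMIs of 59993081 to 185029057 per library. Between 13 and 67 barcodes were shared per pair of libraries, at most 0.624% of the smaller one. Cells were clustered without the *Ebf* genes and named from marker lists that hold none of them, as PN-like states (progenitor, intermediate progenitor, migrating and differentiated), pontine subtypes (ePN1 to ePN4 at E18.5, PN1 to PN6 at P5), granule lineage and others. The lists are the study's own, found on these libraries, with *Ebf1* taken out, and each class is written as "-like". Litter 2 of E14.5 stood apart: 4817 of its 6352 control cells and 5416 of its 6913 Atoh1S193A/- cells fell in clusters outside all named classes, and it gave 57 and 5 migrating neuron-1-like cells, against 219 to 347 in the other E14.5 libraries. Main results are therefore given per library.

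At E14.5, *Ebf1* was low in progenitor-like cells and high in neurons that had left the germinal zone. Levels are UMIs per 1000000 UMIs of a class (CPM), with the SD over 3 control libraries, and genes are not ranked against each other. In progenitor-like cells of control libraries 1, 2 and 3, *Ebf1* was at 35.3, 34.5 and 44.3 CPM (38.0 ± 5.42, n = 3). In intermediate progenitor-like cells, the stage at which *Hes5*, *Gadd45g* and *Atoh1* lead, it was at 327.7, 739.0 and 298.0 CPM (455 ± 247). In migrating PN-like cells it was at 835.6, 1111.8 and 894.7 CPM (947 ± 145), so that every control library was higher there than in its own intermediate progenitor-like cells. Differentiated PN-like cells, led by *Mapt*, *Cnr1* and *Myt1l*, were at 606.3, 1303.7 and 581.5 CPM (830 ± 410), and library 2 alone carried the wide SD (594 without it). Migrating and differentiated PN-like cells overlapped within their SD, as did differentiated PN-like and intermediate progenitor-like cells, whereas progenitor-like cells lay below every other PN-like class. Neither class was uniform. Over all libraries the migrating sub-clusters ran from 582 to 1255 CPM and the differentiated ones from 159 to 1372 CPM. The highest migrating one (316 cells) was led by *Lhx2*, a gene by which the study set cerebellar external granule layer cells apart from the PN.

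The granule lineage held less *Ebf1* than PN-like neurons of the same libraries. Postmitotic granule neuron-like cells were at 301.3, 474.0 and 325.3 CPM (367 ± 93.5). Cycling granule progenitor-like cells were at 158.0, 228.2 and 151.3 CPM (179 ± 42.6), and granule lineage-like cells low in both *Mki67* and *Mapt* at 118.5, 243.9 and 145.6 CPM (169 ± 66.0). Library 2 was the highest in all 3 classes. Outside the neurons, pericyte-like cells were at 219 ± 42.8 CPM, astrocyte-like cells at 14.8 ± 13.0 CPM and microglia-like cells, which should lack the gene, at 3.16 ± 5.47 CPM. Postmitotic granule neuron-like cells overlapped with intermediate progenitor-like cells above them and not with pericyte-like cells below them, while pericyte-like and the other 2 granule classes did not differ beyond their spread.

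Among the named classes *Ebf2* and *Ebf3* were also highest in migrating PN-like cells at E14.5, but both were lower again in the differentiated class as a whole. *Ebf2* was at 87.3, 127.8 and 72.8 CPM in migrating PN-like cells (96.0 ± 28.5) and 78.1, 116.7 and 56.8 CPM in intermediate progenitor-like cells (83.9 ± 30.4), which overlap. In differentiated PN-like cells it was at 14.9, 53.5 and 11.4 CPM (26.6 ± 23.4), and each library was below its own migrating PN-like cells. *Ebf3* was at 338.6, 354.2 and 314.8 CPM in migrating PN-like cells (336 ± 19.8) and at 61.1, 196.9 and 64.0 CPM in differentiated ones (107 ± 77.6), without overlap. Over all libraries the *Lhx2*-led migrating sub-cluster had the most *Ebf3* of its class, at 408 CPM, and the others had 265 to 396 CPM. *Ebf3* in granule lineage-like cells was at 152 ± 10.2 CPM in the cycling and 184 ± 37.5 CPM in the postmitotic class, which overlap within their SD. Progenitor-like cells had 24.2 ± 5.78 CPM of *Ebf3*. Microglia-like cells were at 15.9 ± 14.6 CPM, from only 3 UMIs in 16 control cells, too few to set a background for this gene.

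**Figure D1:**
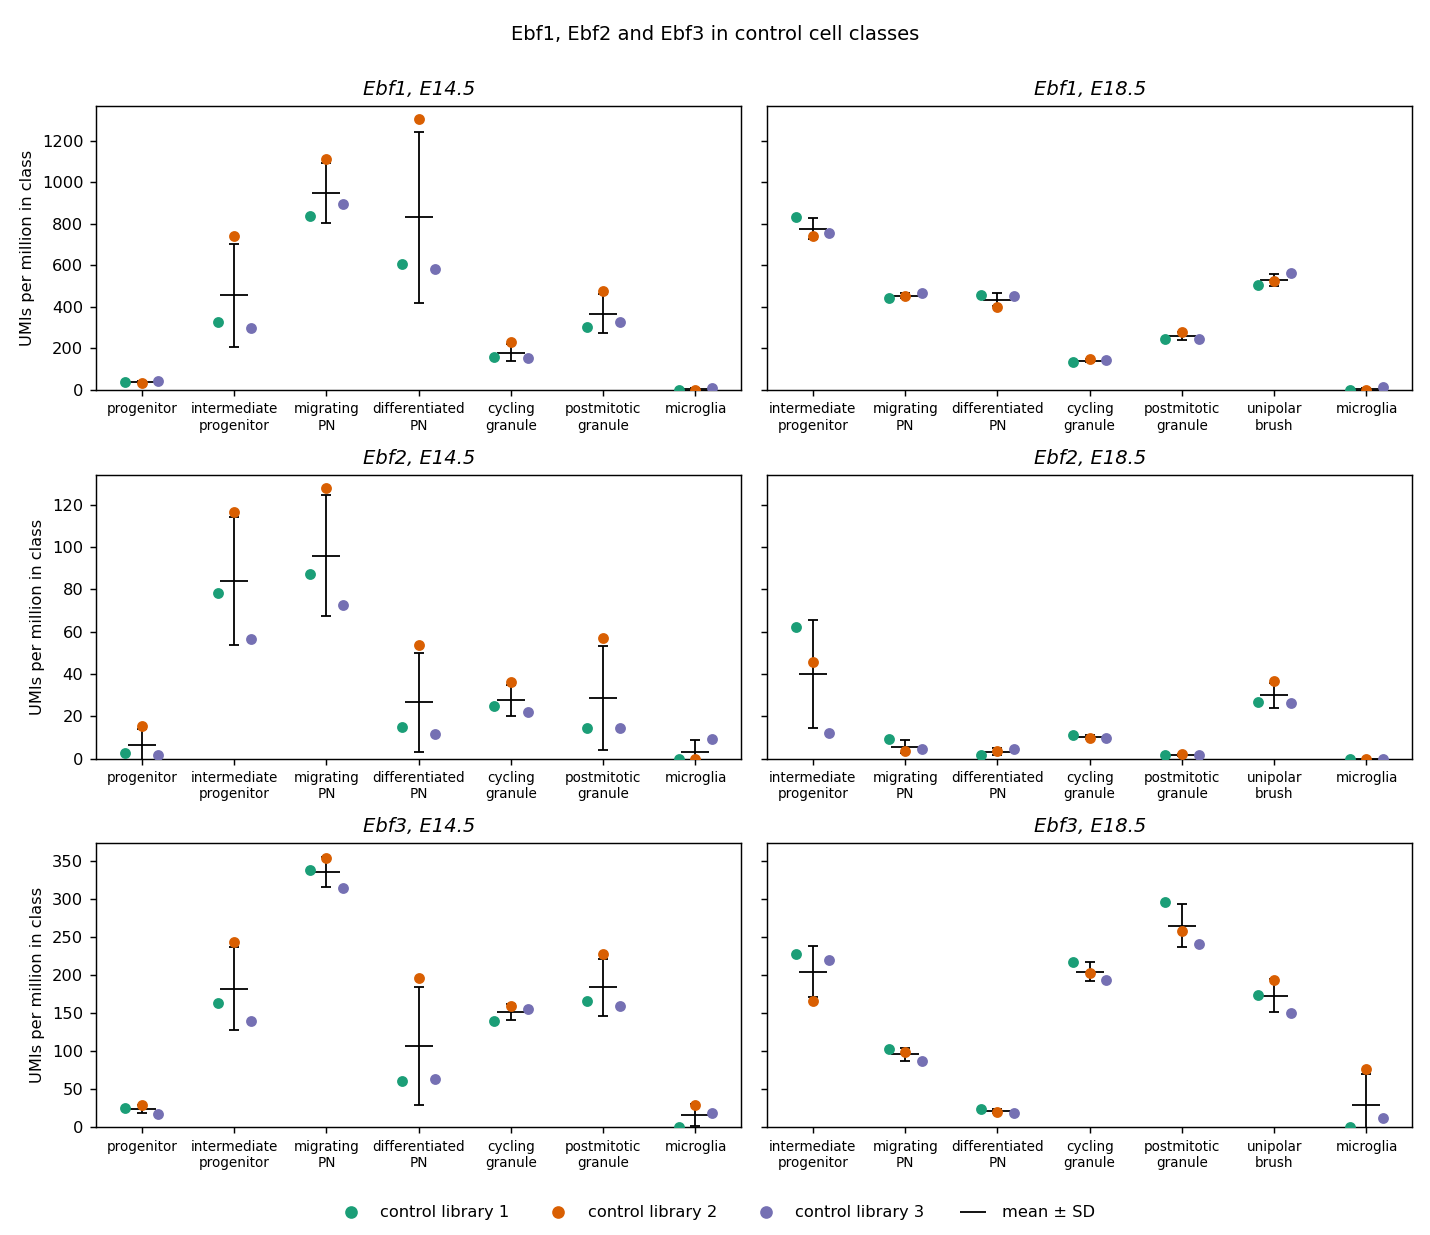
Levels of *Ebf1*, *Ebf2* and *Ebf3* (vertical axes, CPM of a class, one scale per gene) in control cell classes at E14.5 (left) and E18.5 (right). Points are control libraries 1 to 3, and bars are mean ± SD over them, cut at 0. Of the classes plotted, all 3 genes were highest in migrating PN-like cells at E14.5, whereas at E18.5 *Ebf3* was highest in postmitotic granule neuron-like cells, at 265 ± 28.4 CPM.

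By E18.5 the genes were spread differently over the lineages. *Ebf1* was at 443.8, 454.2 and 465.3 CPM in migrating PN-like cells (454 ± 10.8) and at 455.3, 398.6 and 450.1 CPM in differentiated ones (435 ± 31.3), which overlap. Unipolar brush cell-like cells, the *Eomes*-positive excitatory interneurons of the cerebellum, were at 504.5, 524.9 and 562.0 CPM (530 ± 29.1), above the migrating PN-like class as a whole in all 3 libraries. The migrating class was not uniform, however. Its sub-cluster led by *Robo3*, *Crabp1* and *Ren1*, which also had *Nhlh1* among its leading genes, was at 1024.3, 981.5 and 999.3 CPM of *Ebf1*, above unipolar brush cell-like cells, and held 28.4%, 24.6% and 18.8% of the class in the control libraries. The other 3 sub-clusters were at 521, 237 and 115 CPM over all libraries. The lowest, with 212 cells, lay just inside the naming limit, with a marker score of 0.273 against 0.25. *Fbxl7* and *Gad2* of the migrating list were among its leading genes, and *Robo3* and *Crabp1* were not. The few intermediate progenitor-like cells of the control libraries (13, 13 and 6 cells) were at 777 ± 50.9 CPM. Postmitotic granule neuron-like cells were at 257 ± 19.7 CPM and cycling granule progenitor-like cells at 141 ± 7.12 CPM, which did not overlap.

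*Ebf3* at E18.5 was higher in the granule lineage classes than in the migrating or differentiated PN-like class as a whole. It was at 296.2, 257.6 and 240.9 CPM in postmitotic granule neuron-like cells (265 ± 28.4), at 217.9, 202.7 and 193.5 CPM in cycling granule progenitor-like cells (205 ± 12.3) and at 173 ± 21.7 CPM in unipolar brush cell-like cells. Migrating PN-like cells had 102.4, 99.0 and 86.7 CPM (96.0 ± 8.28), made up of 267.4, 234.2 and 237.5 CPM in the *Robo3*-led sub-cluster, each above cycling granule progenitor-like cells of the same library, and 91.6, 37.4 and 31.9 CPM over all libraries in the others. Differentiated PN-like cells had 24.5, 20.3 and 19.2 CPM (21.3 ± 2.76), which overlapped with the 29.4 ± 41.0 CPM of microglia-like cells, of which there were 13 in the control libraries. *Ebf2* was low in all of these classes, at 29.9 ± 5.91 CPM in unipolar brush cell-like cells, 10.2 ± 0.827 CPM in cycling granule progenitor-like cells, 5.67 ± 3.11 CPM in migrating PN-like cells and 1.81 ± 0.444 CPM in postmitotic granule neuron-like cells.

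Among differentiated PN neurons, *Ebf1* differed widely between subtypes at both later stages. At E18.5 the ePN2-like subtype, named from *Sst*, *Ephb1*, *Pcp4* and others, was at 886.5, 638.8 and 875.9 CPM (800 ± 140). The ePN3-like subtype, named from *Hoxb5*, *Hoxc4* and *Hoxa5*, was at 278 ± 55.0 CPM, the ePN1-like subtype (*Prox1*, *Zbtb20*, *Cdkn1c*) at 148 ± 29.7 CPM and the ePN4-like subtype, with 5, 5 and 19 cells, at 108 ± 63.7 CPM. The lowest ePN2-like library was above the highest library of each of the others. ePN1-like and ePN4-like cells overlapped. Within ePN2-like cells the level came mostly from 1 sub-cluster, led by *Pcp4*, *Sst* and *Ebf1* itself, at 1504.1, 1491.8 and 1984.5 CPM in the control libraries, whereas the other 3 ePN2-like sub-clusters were between 277 and 419 CPM over all libraries. ePN3-like sub-clusters also differed, from 56.8 CPM in the one led by *Fibin* and *Calb1* to 502 CPM in one led by *Hoxa5* and *Pcp4*.

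At P5 the PN1-like subtype, named from *Sst*, *Pcp4* and *Pnoc*, held the most *Ebf1*, at 612.9 and 567.4 CPM in the 2 libraries (590 ± 32.1, n = 2). PN2-like cells (*Pcsk2*, *Cdh8*) were at 209.0 and 173.0 CPM, PN4-like cells (*Hoxb5*, *Hoxc4*) at 172.6 and 119.5 CPM, PN5-like cells (*Nr2f2*) at 123.9 and 117.7 CPM and PN6-like cells (*Etv1*, *Igf1*) at 108.1 and 93.0 CPM. The spreads of PN2-like and PN4-like cells overlapped. PN4-like sub-clusters ran from 18.1 CPM (398 cells, led by *Cdkn1c*) to 200 CPM over both libraries. PN3-like cells (*Cdkn1c*, *Gstm1*) were lowest of the subtypes, at 14.2 and 9.08 CPM, and did not differ beyond their spread from microglia-like cells at 9.75 ± 7.27 CPM. Without doublet removal the level in PN3-like cells was higher, as given with the alternatives below. The 4 PN1-like sub-clusters ranged from 340 to 835 CPM over both libraries, and the one at 473 CPM was led by haemoglobin genes, a sign of red blood cell RNA whose part in the level was not tested. PN5-like cells were uneven as well: a small sub-cluster of 58 cells led by *Lmo3* was at 587 CPM and the other, with 461 cells, at 22.5 CPM. The leading genes of the small one included *Lmo3* of the PN5 list but not *Nr2f2*. They also held *Meis2* of the PN3 list, *Nxph1* of the PN4 list and *Sst* of the PN1 list, so its name is uncertain.

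*Ebf2* and *Ebf3* were scarce in PN-like cells at P5. *Ebf2* ranged from 3.00 ± 0.609 CPM in PN1-like to 9.47 ± 0.768 CPM in PN3-like cells, the reverse of the places these subtypes held for *Ebf1*, and microglia-like cells had 0.442 ± 0.625 CPM. *Ebf3* lay between 0.719 and 2.06 CPM in the 6 subtypes, a range that includes microglia-like cells at 1.86 ± 0.335 CPM. Its highest level in a named class was 8.31 ± 2.30 CPM in unipolar brush cell-like cells.

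**Figure D2:**
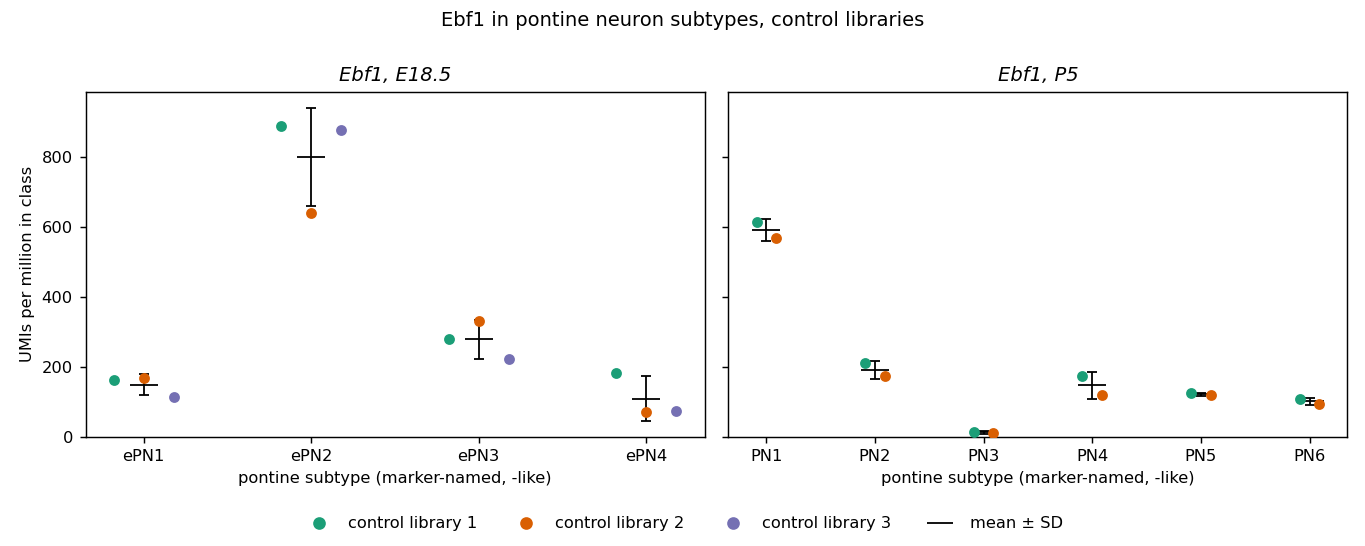
*Ebf1* (vertical axis, CPM of a class) in marker-named pontine subtypes of control libraries at E18.5 (left, 3 libraries) and P5 (right, 2 libraries). Points are libraries and bars are mean ± SD. ePN2-like cells at E18.5 (800 ± 140 CPM) and PN1-like cells at P5 (590 ± 32.1 CPM) were above the other subtypes, and PN3-like cells were at 11.7 ± 3.63 CPM.

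The share of cells with at least 1 UMI is a second measure beside the levels. To limit the effect of depth, each cell was thinned to 5000 UMIs and shallower cells were left out (6 of 1432 migrating PN-like control cells at E14.5, 2 of 450 at E18.5), and unthinned shares are in brackets. *Ebf1* was detected in 12.1% [34.1%] of progenitor-like, 65.8% [82.9%] of intermediate progenitor-like, 96.0% [99.7%] of migrating PN-like and 82.0% [94.1%] of differentiated PN-like cells at E14.5, as means over control libraries. At E18.5 it was detected in 69.0% [87.1%] of migrating PN-like, 50.9% [71.3%] of differentiated PN-like and 75.3% [94.8%] of ePN2-like cells. At P5 the shares were 81.4% [95.2%] in PN1-like and 5.60% [19.7%] in PN3-like cells. Microglia-like cells at P5 gave 4.73% for *Ebf1* (95% exact binomial interval 3.49% to 6.26%, 972 cells, median 10753 UMIs), 0.309% for *Ebf2* and 0.823% for *Ebf3*, so the share in PN3-like cells lay within the interval of this background. At E14.5 and E18.5 only 8 microglia-like cells per stage were deep enough. After thinning none had a UMI, which allows a share of up to 37.5%. Before thinning the 16 control cells of E14.5 held 1 UMI of *Ebf1*, 1 of *Ebf2* and 3 of *Ebf3*. Intervals cover counting error only.

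*Ebf2* was detected in 35.5% [72.1%] and *Ebf3* in 78.1% [97.6%] of migrating PN-like cells at E14.5, and in 3.02% [8.06%] and 29.6% [55.2%] at E18.5. In differentiated PN-like cells *Ebf3* was detected in 30.3% [51.0%] at E14.5 and 9.25% [28.1%] at E18.5. Cycling granule progenitor-like cells went the other way for this gene, with 52.1% [91.8%] at E14.5 and 59.4% [92.2%] at E18.5.

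Of the 12 named classes compared, migrating PN-like cells at E14.5 had the largest share of cells with several *Ebf* genes at once. There, 26.6 ± 7.37% of thinned cells had UMIs of all 3 genes and 56.9 ± 3.38% of 2, and only 0.580% had none. Both *Ebf1* and *Ebf3* were seen in 75.0 ± 4.63%. Progenitor-like cells had none of the 3 genes in 81.2% of cells. In differentiated PN-like cells *Ebf1* without *Ebf3* was the common state, at 54.0 ± 6.48% of cells at E14.5 and 46.7% at E18.5. Cycling granule progenitor-like cells at E18.5 had *Ebf3* without *Ebf1* in 34.6 ± 1.75% and *Ebf1* without *Ebf3* in 12.2%. At P5, 80.3% of PN1-like cells had 1 of the genes and 1.51% had 2. These shares depend on depth even after thinning, since a gene with few molecules per cell is often missed.

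**Figure D3:**
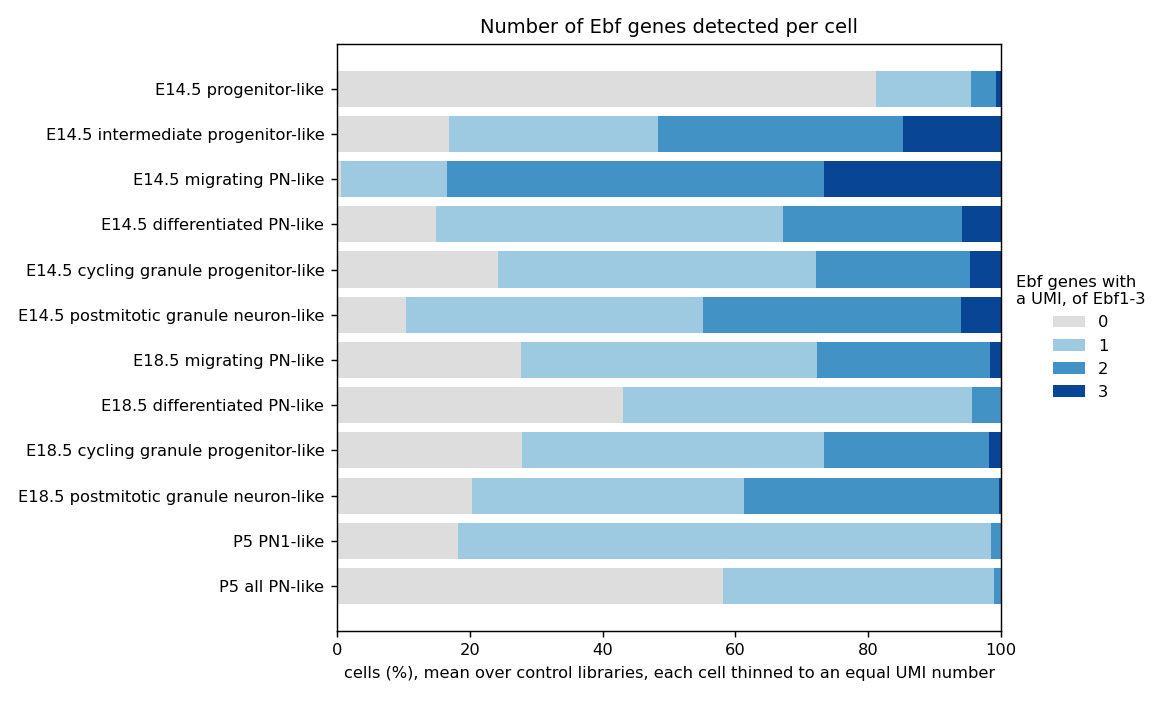
Share of cells (horizontal axis, %, mean over control libraries) with UMIs of 0, 1, 2 or 3 of the genes *Ebf1*, *Ebf2* and *Ebf3*, each cell thinned to 5000 UMIs, for 12 classes. Migrating PN-like cells at E14.5 had 0.580% with none and 26.6% with all 3, and PN1-like cells at P5 had 80.3% with 1.

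Between E14.5 and E18.5 all 3 genes fell in migrating and differentiated PN-like classes of control libraries. Class sums of 3 control libraries per stage were compared by edgeR's quasi-likelihood test with Benjamini-Hochberg adjustment over all tested genes, and calls needed both an FDR below 0.05 and a log2 fold change beyond 0.25 in either direction. The background was high: 50.9% of tested genes were called in migrating PN-like, 56.6% in differentiated PN-like and 40.7% in cycling granule progenitor-like cells, so a call by itself was common in this comparison. In migrating PN-like cells *Ebf1* was 2.26-fold lower at E18.5 (log2 fold change −1.18, SE 0.11, FDR 5.066e-06), *Ebf3* 3.80-fold lower (−1.93, SE 0.10, FDR 2.668e-08) and *Ebf2* 18.3-fold lower (−4.19, SE 0.30, FDR 4.312e-07). The libraries of the 2 stages did not overlap for any of them, but how many of all genes were without overlap was not counted. These are changes of the whole class: the *Robo3*-led sub-cluster of E18.5, at 981.5 to 1024.3 CPM of *Ebf1*, lay within the 835.6 to 1111.8 CPM of the E14.5 class. The part of the class makeup in the change was not tested. This includes the E18.5 sub-cluster near the naming limit and the *Lhx2*-led one of E14.5.

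Differentiated PN-like cells fell in the same direction. *Ebf1* changed by −1.05 (SE 0.27, FDR 0.008732), *Ebf2* by −2.97 (SE 0.63, FDR 0.002884) and *Ebf3* by −2.45 (SE 0.43, FDR 0.001041), each on the log2 scale. Part of the size rested on E14.5 control library 2, without which the values were −0.57, −1.97 and −1.70, still called (FDR 0.0001823, 0.0001084 and 2.957e-07). The stages were clustered separately and no library spans both, so stage and preparation cannot be told apart. The subtypes in the differentiated class also differ between the stages, and their part in these changes was not tested.

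Cycling granule progenitor-like cells showed a different profile. *Ebf2* was 2.75-fold lower at E18.5 (−1.46, SE 0.17, FDR 0.000315), *Ebf3* was 1.29-fold higher (0.37, SE 0.08, FDR 0.007616) and *Ebf1* changed by −0.39 (SE 0.15, FDR 0.06014), which was not called. Without E14.5 control library 1 or 3 it was called, at −0.49 and −0.48. *Ebf3* was at 140.3, 159.4 and 156.1 CPM at E14.5 and at 217.9, 202.7 and 193.5 CPM at E18.5, without overlap, which was not counted over all genes either. Over all kept cells, where 51.6% of genes were called, *Ebf1* (−1.03, FDR 0.006796) and *Ebf2* (−2.51, FDR 0.0004781) fell and *Ebf3* did not pass (−0.16, FDR 0.3211). A changed mixture of classes and a change within a class cannot be told apart in the latter comparison.

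**Figure D4:**
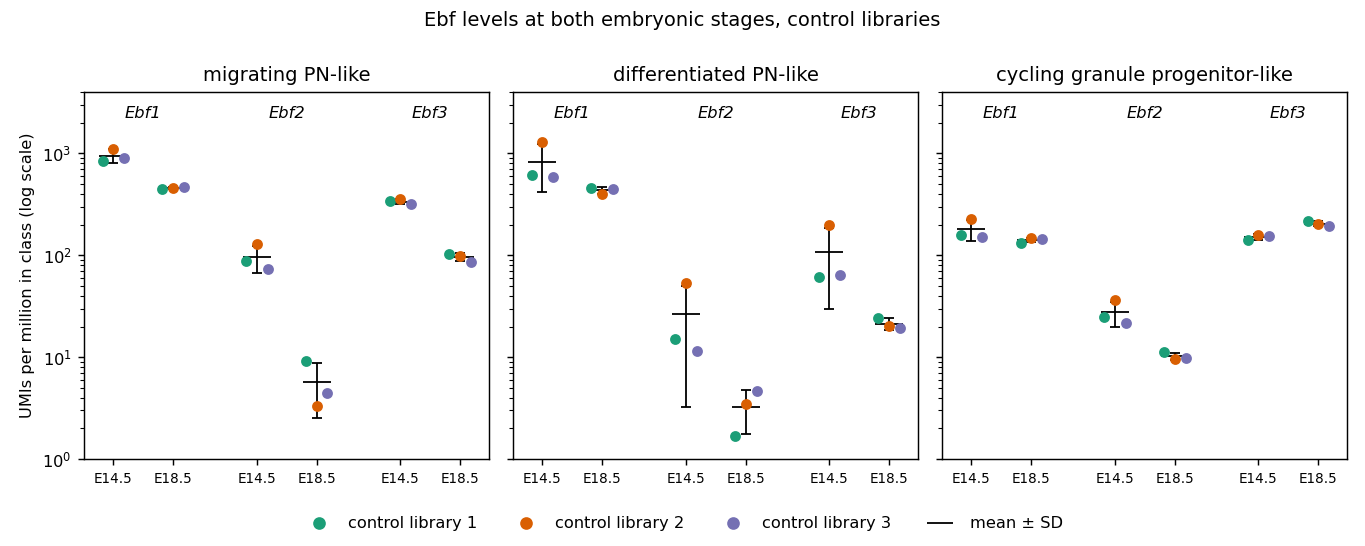
Levels of the 3 genes (vertical axis, CPM of a class, log scale) at E14.5 and E18.5 in 3 classes of control libraries. Points are libraries and bars are mean ± SD. In migrating PN-like cells *Ebf2* went from 96.0 to 5.67 CPM on average, and in cycling granule progenitor-like cells *Ebf3* went from 152 to 205 CPM.

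Related genes did not all follow. Of 9 neuronal basic helix-loop-helix genes, 6 were tested in migrating PN-like cells and 5 of them fell with stage: *Atoh1* (−3.38), *Neurod6* (−1.36), *Nhlh2* (−0.64), *Neurod2* (−0.57) and *Nhlh1* (−0.52). Of all 9871 genes tested there, 2439 were called lower and 2587 higher. The median over the 6 was −0.61, against 0.01 over all tested genes. All 6 tested in differentiated PN-like cells fell (median −1.64), where 2818 of 10200 genes were called lower and 2959 higher. *Zfp423* and *Zfp521*, zinc finger proteins known to bind EBF proteins and restrain them, rose in migrating PN-like cells (0.41 and 0.44), and neither was called in differentiated ones. *Adcy3* (1.17) and *Gnal* (1.75), olfactory signalling genes with known EBF sites, were the 2 of 4 such genes tested in differentiated PN-like cells, and both rose there while the 3 *Ebf* genes fell. None of the 8 B-lineage genes known as *Ebf1* targets was high enough to be tested in PN-like neurons. In cycling granule progenitor-like cells, where 40.7% of genes were called, *Foxo1* of that list was tested and rose (1.67). There *Nhlh1* (1.56), *Nhlh2* (1.57), *Neurod1* (0.36) and *Zfp423* (0.40) rose. *Atoh1* (−1.53), *Neurod2* (−1.35), *Neurod6* (−1.09) and *Zfp521* (−0.45) fell, and *Neurod4* and *Adcy3* were not called. The fourth family member, *Ebf4*, fell under the detection filter in each stage comparison.

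Genotype was compared within classes between 3 Atoh1S193A/- and 3 control libraries of each stage. Without litter as a term, 0 of 20 tests of an *Ebf* gene in a class were called at E14.5 and 0 of 18 at E18.5, and 3 of the 20 and 4 of the 18 had an unadjusted p under 0.05. Of all genes tested by the same fit, those under this limit ran from 157 of 9849 to 467 of 9800 between the E14.5 classes. Between the E18.5 classes they ran from 232 of 9401 to 681 of 9781. The labels give replicate numbers only. The study states that each Atoh1S193A/- embryo had a littermate control, and libraries with the same number were taken as littermates. The fit was therefore repeated with this number as a litter block. With the block 3 tests at E14.5 and 2 at E18.5 were called, all lower in Atoh1S193A/-. DESeq2 without the block called 1 at each stage. At E14.5 the Cell Ranger header differed within litters 1 and 2, at 3.1.0 in control and 5.0.1 in Atoh1S193A/- libraries. The study also lists a female control and a male Atoh1S193A/- embryo for litter 1. In those litters these differences cannot be told apart from genotype.

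The share of all genes called differed between classes and is given here for those not described further. At E14.5 it was 0.0203% in differentiated PN-like and 2.62% in granule lineage-like cells low in *Mki67* and *Mapt* with the block. At E18.5 it was 0.0624% in migrating PN-like, 0.09% in differentiated PN-like and 0.0338% in unipolar brush cell-like cells without the block. With the block it was 0.114%, 0.45% and 0.676% in these 3 classes, 0.277% in postmitotic granule neuron-like and 0.0196% in ePN3-like cells. DESeq2 called 0.0539% in intermediate progenitor-like, 0.095% in migrating PN-like, 0.418% in the low-*Mki67* and 0.0104% in the postmitotic granule class at E14.5, and 2.43% over all kept cells. At E18.5 it called 0.0728% in migrating PN-like, 0.17% in differentiated PN-like, 0.0196% in ePN3-like, 0.0532% in postmitotic granule neuron-like and 0.214% in unipolar brush cell-like cells.

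*Ebf1* in the least mature PN-like cells of E14.5 was lower in Atoh1S193A/- in all 3 litters. In progenitor-like cells the Atoh1S193A/- libraries were at 11.4, 19.8 and 14.3 CPM, each below the lowest control library at 34.5 CPM. The log2 fold change was −1.37 (SE 0.22, FDR 0.2276; 0.00988% of genes called) without and −1.37 (SE 0.19, FDR 0.003649; 0.691% called) with the litter block, a 2.58-fold difference. DESeq2 gave −1.38 (FDR 0.0001255; 0.138% called) without the block, and edgeR without litter 2, an alternative chosen after seeing the data, gave −1.67 (FDR 0.09932). Of the 6 unblocked fits that left out 1 library, only that without Atoh1S193A/- library 2, the highest of its group, was called (−1.56, FDR 0.02463). The sub-cluster led by *Ube2c* and *Cenpf*, genes of dividing cells, was at 55.2, 64.5 and 86.8 CPM in control and 15.3, 38.9 and 17.5 CPM in Atoh1S193A/- libraries. Progenitor-like cells made up 1.75 ± 0.452% of kept cells in control and 6.57 ± 1.72% in Atoh1S193A/- libraries. Their number moved opposite to the level of *Ebf1*, a link that was not tested. *Ebf3* in these cells was at 24.9, 29.6 and 18.1 CPM in control and 12.8, 23.8 and 14.7 CPM in Atoh1S193A/- libraries. It was thus also lower in each litter, but was not called (−0.54 with the block, FDR 0.293). *Ebf2* was not tested in this class.

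Intermediate progenitor-like cells of E14.5 gave the same direction with a strong litter difference. *Ebf1* was at 327.7, 739.0 and 298.0 CPM in control and at 100.7, 455.9 and 81.6 CPM in Atoh1S193A/- libraries, so the groups overlap across litters but not within one. The log2 ratios of the litters were −1.70, −0.70 and −1.87. Without the block the fit gave −1.13 (SE 0.64, FDR 1.0; 0.0% of genes called, 254 with an unadjusted p under 0.05, and 5 called by DESeq2), and with it −1.36 (SE 0.18, FDR 0.0108; 1.21% called). Without litter 2 the value was −1.74 (SE 0.13, FDR 0.0008338; 0.388% called). *Ebf2* in the same cells was lower in 3 of 3 litters (−0.74 with the block, FDR 0.1199) and *Ebf3* in 2 of 3 (−0.25, FDR 0.4818), and neither was called. The sub-clusters of this class were not shared equally: the one led by *Hes5* and *Eln* held 91.6%, 7.6% and 91.0% of the class in the control libraries and 9.6% of it in Atoh1S193A/- library 2, where libraries 1 and 3 had no other cells in the class. Within it *Ebf1* was at 299.1, 85.2 and 216.0 CPM in control and 100.7, 50.9 and 81.6 CPM in Atoh1S193A/- libraries, lower in each litter.

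In later PN-like cells of E14.5 no *Ebf* gene was called. *Ebf1* in migrating PN-like cells was at 682.1, 1027.0 and 673.7 CPM in Atoh1S193A/- libraries (−0.28, FDR 1.0 without the block; −0.30, FDR 0.2553 with it; 0.116% of genes called), lower in 3 of 3 litters but not called. In differentiated PN-like cells the litters did not move together, at log2 ratios of −0.56, 0.04 and −0.34. *Ebf3* there was at 73.1, 399.7 and 63.8 CPM in Atoh1S193A/- libraries, where library 2 again stood apart (0.69, FDR 0.999 without the block; 0.43, FDR 0.3708 with it). Over all kept cells *Ebf1* was at 466.6, 767.6 and 435.5 CPM in control and 283.6, 655.4 and 312.1 CPM in Atoh1S193A/- libraries, which gave −0.45 (FDR 0.6473; 0.00977% called) without and −0.50 (SE 0.08, FDR 0.01151; 17.6% called) with the block. Without litter 2 it was −0.61 (FDR 0.1841), and single libraries moved the unblocked value from −0.15 (without control library 2) to −0.91 (without Atoh1S193A/- library 2). Over all kept cells a changed mixture of classes cannot be told apart from a change within them.

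In the granule lineage the calls were *Ebf2* in cycling granule progenitor-like cells, with the block at both stages and by DESeq2 at E18.5. At E14.5 cycling granule progenitor-like cells had 24.6, 36.0 and 21.8 CPM in control and 13.7, 25.5 and 15.1 CPM in Atoh1S193A/- libraries (−0.68, FDR 0.9991 without the block; −0.63, SE 0.11, FDR 0.03118 with it; 1.26% of genes called). DESeq2 (−0.67, FDR 0.7798; 0.175% called) and edgeR without litter 2 (−0.68, FDR 0.7925) did not call it. *Ebf1* in these cells was −0.47 with the block (FDR 0.1388), which was not called. Nor was *Ebf2* in the other granule classes of E14.5, at −0.08 (FDR 0.8478) in the class low in *Mki67* and *Mapt* and 0.36 (FDR 0.6605) in the postmitotic class. At E18.5 cycling granule progenitor-like cells had 11.1, 9.7 and 9.8 CPM in control and 7.1, 4.0 and 4.4 CPM in Atoh1S193A/- libraries, without overlap. The change there was −0.96 (SE 0.19, FDR 0.1069; 0.45% called) without the block, −0.98 (SE 0.13, FDR 0.0058; 2.18% called) with it and −0.98 (FDR 5.7e-05; 1.5% called) by DESeq2, a 1.97-fold difference with the block. Of the 6 unblocked fits that left out 1 library, only that without Atoh1S193A/- library 1, the highest of its group, was called (−1.29, FDR 0.01188). *Ebf1* (−0.12) and *Ebf3* (−0.01) in the same E18.5 cells were not called. Few cells had an *Ebf2* UMI there, 4.24% [11.3%] in control libraries. The unthinned share thus stood near the filter of 10% of the cells of either group. The gene passed it in the control group, where its level was higher.

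At E18.5 the other call was *Ebf1* in ePN2-like cells. The Atoh1S193A/- libraries were at 537.5, 568.9 and 627.3 CPM, all below the lowest control library at 638.8 CPM, with log2 ratios of −0.72, −0.17 and −0.48. The fit gave −0.49 with and without the block, with SE 0.11 and FDR 0.9996 without it (0.0% of genes called, 346 with an unadjusted p under 0.05, and 0 called by DESeq2) and SE 0.07 and FDR 0.0007282 with it (0.172% called). Of the 6 unblocked fits that left out 1 library, only that without control library 2, the lowest control, was called (−0.62, FDR 0.0259). In the sub-cluster with the most *Ebf1* the Atoh1S193A/- libraries were at 1186.5, 1415.1 and 1458.1 CPM, each below its littermate, and it held 26.5%, 23.8% and 23.0% of ePN2-like cells against 40.5%, 21.5% and 30.0% in control libraries, so level and makeup moved together in litters 1 and 3. *Ebf1* was not called in ePN1-like (0.66, FDR 0.9999; 29, 15 and 45 Atoh1S193A/- cells; −0.55 without Atoh1S193A/- library 3) or ePN3-like cells (−0.08, FDR 0.9991), nor in migrating (−0.10, FDR 0.9996) or differentiated PN-like cells as a whole (−0.18; FDR 0.1736 with the block).

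**Figure D5:**
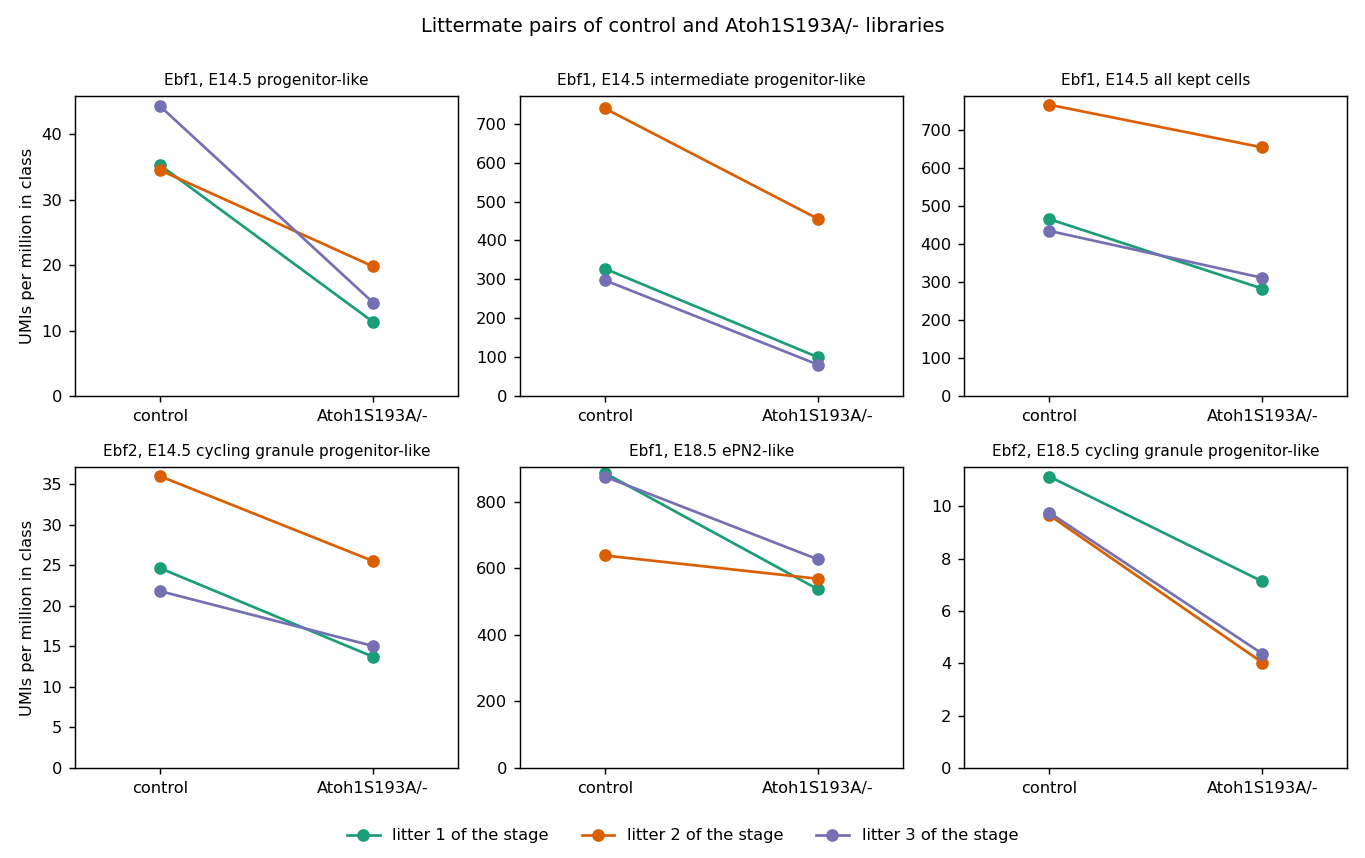
The 6 comparisons called with the litter block, as littermate pairs: levels (vertical axes, CPM of a class, starting at 0) in control and Atoh1S193A/- libraries joined by litter. Every line falls, and in intermediate progenitor-like cells litter 2 lies above the others, at 739.0 and 455.9 CPM.

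An interaction term asked whether genotype acted differently at E18.5 and at E14.5, in 3 classes and over all kept cells. None of the 12 tests was called by edgeR without the block, where no gene was called. Over all kept cells 796 genes then had an unadjusted p under 0.05, and DESeq2 called 71. The 9 tests within migrating PN-like, differentiated PN-like and cycling granule progenitor-like cells were not called with the block either. Few genes of any kind were called there, at 0.0297%, 0.086% and 0.105% of those tested, so these 9 results do not show equal effects. Over all kept cells *Ebf1* gave 0.41 with the block (SE 0.10, FDR 0.0295; 1532 of 10533 genes called), the effect being smaller at E18.5. The unblocked value ran from 0.06 without E14.5 control library 2 to 0.82 without E14.5 Atoh1S193A/- library 2. The effect in progenitor-like cells could not be compared, because that class was not formed at E18.5, nor that in intermediate progenitor-like cells, which were too few there. That *Ebf2* in cycling granule progenitor-like cells was called at both stages with the block does not show equal effects, since their difference was −0.34 with a 95% interval of −0.77 to 0.08.

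Among related genes, edgeR made genotype calls with the block and none without it. With the block 7 of 46 tests of neuronal basic helix-loop-helix genes were called at E14.5, 1 higher and 6 lower in Atoh1S193A/-, and 4 of 50 at E18.5, 2 higher and 2 lower. Of the 7 at E14.5, 4 were over all kept cells, where 17.6% of all genes were called, and 3 in granule classes, where 1.26% (cycling) and 2.62% (low in *Mki67* and *Mapt*) were. Over all kept cells of E14.5 *Neurod6* (−0.43), *Neurod2* (−0.32) and *Neurod1* (−0.27) were lower in Atoh1S193A/- and *Atoh1* itself was higher (0.48). *Neurod6* was also lower in cycling granule progenitor-like cells (−0.70), and *Nhlh2* (−0.56) and *Neurod1* (−0.41) in the class low in *Mki67* and *Mapt*. At E18.5 *Atoh1* was higher in cycling granule progenitor-like cells (0.36; 2.18% of genes called) and postmitotic granule neuron-like cells (1.16; 0.277%), and *Neurod4* was lower in the former (−0.38) and *Nhlh1* in unipolar brush cell-like cells (−0.57; 0.676%). No test was called for *Zfp423*, *Zfp521* or *Ebf4*, nor for the B-lineage and olfactory genes.

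The genes whose pattern over clusters was most like that of an *Ebf* gene were listed for each stage. Likeness was Pearson's correlation of log2(CPM + 10) over cluster means of control libraries, a description over points that share libraries. The unnamed clusters of few UMIs per cell are among the points and include the highest for *Ebf1* at E14.5 and for *Ebf1* and *Ebf2* at E18.5. Over 33 clusters at E14.5, *Ebf2* and *Ebf3* were each other's nearest gene (r = 0.855), *Ebf1* and *Ebf3* correlated at 0.842 and *Ebf1* and *Ebf2* at 0.714. *Ebf2* was next most like *Neurod6* (0.802) and *Nkain1* (0.758), and *Ebf1* was most like *Parp6* (0.899), *Ctif* (0.885) and *Dync1li1* (0.880). Over 31 clusters at E18.5 the correlations within the family were 0.285 for *Ebf1* and *Ebf3*, 0.455 for *Ebf1* and *Ebf2* and 0.253 for *Ebf2* and *Ebf3*, and over 29 clusters at P5 0.559 for *Ebf1* and *Ebf3* and 0.1795 for *Ebf1* and *Ebf2*. The differences between stages were not tested. *Ebf3* was then most like *Dcc* (0.808), *Cog1* (0.807) and *Zbtb10* (0.774), *Ebf1* most like *Ralgds* (0.823), *Cacna2d1* (0.818) and *Hip1r* (0.795), and *Ebf2* most like *Gfra1* (0.775), *Slit1* (0.763) and *Pitpnm2* (0.750). At P5 *Ebf1* was most like *Kcnk9* (0.855), *Srrm4* (0.834) and *B3galt2* (0.815), the last a PN1 marker, and *Ebf3* most like *Gm15577* (0.952), *Insm1* (0.951) and *Cog7* (0.939).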

How the data were processed

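UMI counts per gene and cell barcode, deposited by the authors without normalization, were used for 12 embryonic and 2 P5 libraries. Per the submitters' processing notes the reads were aligned to mm10 with Cell Ranger 5.0.1. The file headers name 3.1.0 for E14.5 control libraries 1 and 2 and 5.0.1 for the other 12. Of 150188 barcodes, cells with at least 1000 genes and under 5% mitochondrial UMIs were kept after removal of the 7.5% with the highest Scrublet scores in each library, which left 80250.

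Cells were normalised to 10000 UMIs, log values were taken, and each stage was clustered on its own with scanpy 1.11.5 in Python 3.11.15 (scikit-learn 1.9.0, pandas 2.3.3, leidenalg 0.10.2, scipy 1.17.1, matplotlib 3.10.9, numpy 2.4.6) with 2000 variable genes, 30 components, 15 neighbours and resolution 1.0. PN-like cells were clustered again. Numerical limits on the naming markers were set after cluster means had been seen. Clusters whose median UMIs were under 1/3 of their library's stayed unnamed. UMIs were summed per library and class (at least 10 cells) and compared with edgeR 4.0.16 in R 4.3.3 (TMM, quasi-likelihood) over genes seen in 10% of the cells of a group. P-values rest on 3 embryos per group, 1 library each, and no test was run on the P5 libraries, which were all control. DESeq2 1.42.0, library totals, no low-count filter, a 10% mitochondrial limit, resolution 2.0, no doublet removal, each library left out and a litter block were run as alternatives.

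The study states that each Atoh1S193A/- embryo was collected with a littermate control, and same-numbered libraries were taken as these pairs. Deviations from the group means correlated at 0.527 to 0.925 between same-numbered libraries over all kept cells (best with the own number in 6 of 6) and at 0.0113 to 0.859 within classes (44 of 45). On simulated counts for E14.5 intermediate progenitor-like cells (9270 genes), the fit recovered 31% of 2-fold and 80% of 4-fold changes without the block and 83% and 100% with it, with 0 and 17 false calls. For E18.5 cycling granule progenitor-like cells (9781 genes) it recovered 100% of both with either fit, with 0 and 11 false calls. The counts were drawn with litter effects estimated from these data. A gain from the block was therefore built in and does not test the choice of fit.

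Named were *Ebf1* to *Ebf3* in every comparison, called members of 4 lists of related genes, the 3 genes of most similar pattern among those reaching 50 CPM in a cluster, and class markers. Leading genes of clusters and sub-clusters were chosen after their values were seen. Members and lists were chosen with earlier results of these data known. Cells were thinned to 5000 UMIs for shares.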

Additional observations from a re-analysis of the deposited data

Results flagged for a closer look

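The genotype effect on *Ebf1* over all kept cells differed between the stages with the litter block, by 0.41 on the log2 scale (0.41 = effect at E18.5 minus effect at E14.5). The test of this difference is the interaction term, and without the block it gave 0.36 (FDR 0.8855), and 0.06 to 0.82 when 1 library was left out, the extremes being without E14.5 control library 2 and without E14.5 Atoh1S193A/- library 2.

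*Ebf1* was also present in clusters that carry no name because their cells had too few UMIs, above its level in microglia-like cells. Over control libraries the mean was 2087 CPM at E14.5, 1143 CPM at E18.5 and 326 CPM at P5. At E14.5 these were 59, 1 and 61 cells, at 1689, 3462 and 1109 CPM. These clusters enter no named class, but they are counted among all kept cells and among the points of the pattern correlations.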

How the results depend on the processing

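All stage changes called in migrating and differentiated PN-like cells kept their direction and call under every alternative run, with or without each library. The genotype results depended on the fit. With the litter block the calls were *Ebf1* in E14.5 progenitor-like (−1.37) and intermediate progenitor-like cells (−1.36), *Ebf2* in E14.5 (−0.63) and E18.5 (−0.98) cycling granule progenitor-like cells, *Ebf1* in ePN2-like cells (−0.49) and *Ebf1* over all kept E14.5 cells (−0.50), with its difference between stages (0.41). The block changed no other *Ebf* call. DESeq2 added *Ebf1* in progenitor-like (−1.38) and *Ebf2* in E18.5 cycling granule progenitor-like cells (−0.98), and by stage *Ebf1* in the cycling class (−0.41). Without the low-count filter *Ebf1* in progenitor-like (−1.36), ePN1-like (0.62) and ePN2-like cells (−0.49), *Ebf2* in E18.5 cycling granule progenitor-like (−0.96) and unipolar brush cell-like cells (−0.72) and, by stage, *Ebf1* in the cycling class (−0.38) were called. A 10% mitochondrial limit gave a call for *Ebf1* in intermediate progenitor-like cells (−0.92), as did leaving out litter 2 (−1.74), chosen after seeing the data.

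Over all *Ebf* tests the sign changed in 63 of 606 alternative values of 44 genotype tests and in 24 of 225 of 12 interaction tests, none of them called. Without litter 2 this held for *Ebf2* in E14.5 differentiated PN-like cells (0.52 to −0.43) and postmitotic granule neuron-like cells (0.69 to −0.22), in the granule class low in *Mki67* and *Mapt* (0.02 to −0.25) and *Ebf3* in migrating PN-like cells (0.08 to −0.06). It also held for *Ebf1* in E14.5 differentiated PN-like cells with Cell Ranger 5.0.1 libraries alone (0.26), a fit with 1 control library, assumed to vary like the others, and in ePN1-like cells without doublet removal (−0.28). Leaving out 1 library at a time gave −0.99 to 0.27 in the former and −0.55 to 1.01 in the latter, −0.28 to 0.13 for *Ebf1* in E18.5 migrating PN-like cells, −1.56 to −1.22 in progenitor-like cells, −2.28 to −0.59 in intermediate progenitor-like cells, −0.62 to −0.40 in ePN2-like cells, −1.29 to −0.82 for *Ebf2* in E18.5 cycling granule progenitor-like cells, −0.91 to −0.15 for *Ebf1* over all kept E14.5 cells, 0.06 to 0.82 for its difference between stages and −0.49 to −0.19 for the stage change of *Ebf1* in the cycling class. The cause was not tested.

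Of *Ebf* tests within classes, 0 were called at E14.5, against 1 by DESeq2, 1 without the filter, 1 with the 10% limit, 3 with the block, 1 without litter 2 and 0 to 1 without a library. At E18.5 0 were called, against 1 by DESeq2, 4 without the filter, 2 with the block and 0 to 1 without a library. Genes called, summed over classes, were 1 at E14.5, against 88 by DESeq2, 222 without the filter, 12 with the 10% limit, 2 at resolution 2.0, 18 without doublet removal, 581 with the block, 0 with Cell Ranger 5.0.1 alone (1 control library against 3, so not comparable with the other counts), 45 without litter 2 and 1 to 10 without a library. At E18.5 they were 62, against 197, 516 and 374 by DESeq2, without the filter and with the block, and 20 to 38 without a library.

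With the 10% limit *Ebf1* was at 468 CPM in E18.5 migrating PN-like, 647 CPM in ePN2-like and 548 CPM in PN1-like cells, and *Ebf3* at 232 CPM in postmitotic granule neuron-like cells of E18.5. At resolution 2.0 *Ebf1* was at 521 CPM and *Ebf3* at 108 CPM in E18.5 migrating PN-like cells and *Ebf1* at 647 CPM in PN1-like cells, and without doublet removal *Ebf1* was at 32.4 CPM in PN3-like cells. Without doublet removal no postmitotic granule class was formed at E14.5. Depth limits *Ebf2* after E14.5 and microglia-like cells before P5.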

Other observations

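Several clusters outside the PN-like and granule classes held as much *Ebf1* as migrating PN-like cells. These clusters were chosen after their values were seen. At E14.5 a cluster led by *Hoxb3os*, *Zfp503* and *Lhx2* was at 1331, 1892 and 1411 CPM in the control libraries (1544 ± 304, n = 3), and 1 led by *Hoxb8* was at 1346 ± 520 CPM. The *Hoxb3os*-led cluster also held 234 ± 60.1 CPM of *Ebf2* and 466 ± 29.6 CPM of *Ebf3*, above the means of migrating PN-like cells. At E18.5 a cluster led by *Otx2*, *Eomes* and *Ebf1* held both *Ebf1* (916, 1013 and 1001 CPM) and *Ebf3* (366, 394 and 353 CPM), the pairing seen in migrating PN-like cells of E14.5.

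At P5, *Ebf3* over all kept cells was 1.70 CPM in library 1 and 11.0 CPM in library 2. In library 2 it came largely from clusters with *Neurod1* and *Insm1* among their leading genes. These had 423 and 290 cells there and 9 and 4 cells in library 1, at 168 and 155 CPM of *Ebf3* in library 2. The smaller one was led by *Ccnd2* and *Hist1h1b*, and *Mki67*, a marker of cycling cells, was at 527 CPM in it over both libraries.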
